A study of Arabidopsis thaliana with 8 samples.

Results

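The comparison set carpels of the nga mutant against carpels of wild type (WT) in Arabidopsis thaliana, ecotype Columbia. It used the 3 libraries titled nga and the 2 titled WT, 5 of the 8 libraries of the series. The genotype label of nga names all 4 NGATHA genes (NGA1, NGA2, NGA3 and NGA4) and gives no alleles, and WT is labelled wild type. In both groups carpels were taken by hand at floral stages 8 to 13 from soil-grown plants in long days, with 15 inflorescences named for each sample. The remaining 3 libraries, from an overexpression line (35S:NGA), entered the tests only to help estimate the spread between libraries and to choose the genes tested. Replicates are numbered in the titles without any word on separate plants or harvests, so every p reflects the spread among these libraries alone, which may be technical.

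The carpels fuse into the pistil, whose upper end forms the style and the stigma, where pollen is caught. The 4 NGATHA genes encode B3-domain transcription factors with largely shared functions, and pistils that lack them are known to fail to form a style and stigma. They act beside the SHI/STY zinc-finger proteins and several bHLH factors (HECATE, SPATULA and the BEE proteins) that pattern the apical pistil and the transmitting tract, the tissue through which pollen tubes grow.

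Transcript levels are RPKM, which divides reads by gene length and by the mapped reads of the library. Mapped reads, estimated from the steps between low values, came to about 30.7, 38.3 and 27.0 M in nga and to about 36.2 and 34.2 M in WT. All 8 carpel and ovule markers (AG, CRC, SHP1, SHP2, STK, SPT, INO and BEL1) were at 9.78 to 117 RPKM in every nga and WT library. The file headers place nga 1, nga 2 and both WT libraries in lane 6 of the sequencer and nga 3 in lane 8. Differences are on the log2(RPKM + 1) scale with their standard errors, which understates the change of genes at low RPKM. Every adjusted p comes from limma over 17786 tested genes with the Benjamini-Hochberg method, and genes under 0.05 were called. Unless another n is given, n was 3 for nga and 2 for WT.

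The genes named by the mutant label were read first. NGA4 (AT4G01500, chromosome 4, 639247 to 640976 in TAIR10.1) was at 0.131, 0.123 and 0.248 RPKM in nga, against 3.97 and 3.83 RPKM in WT. All nga values lay far below both WT values, and NGA4 fell by 2.07 ± 0.15 (limma adjusted p = 0.00117), or by 2.04 ± 0.17 without nga 2 (adjusted p = 0.00534). NGA3 (AT1G01030) was at 2.56, 2.65 and 2.97 RPKM in nga, against 5.47 and 4.81 RPKM in WT. It fell by 0.72 ± 0.20 (adjusted p = 0.0439), a call that was lost without nga 2 (adjusted p = 0.10). NGA1 (AT2G46870) averaged 23.5 ± 2.22 RPKM in nga (SD, n = 3) and 23.7 ± 0.301 RPKM in WT (SD, n = 2). NGA2 (AT3G61970) averaged 10.8 ± 3.70 RPKM in nga (SD, n = 3) and 8.82 ± 0.950 RPKM in WT (SD, n = 2), and neither gene was called. These values cover the whole gene and cannot tell an intact transcript from a broken one, so those of NGA1 and NGA2 do not test the label.

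With all libraries 3008 genes were called (16.9% of those tested). Of these, 1647 rose (9.26%) and 1361 fell (7.65%). Changes of at least 2-fold made up 574 of the rises and 497 of the falls. Without nga 2, 844 genes were called (4.75%), 447 higher (2.51%) and 397 lower (2.23%). Of these, 831 were also called with all libraries in the same direction, 437 that rose (2.46%) and 394 that fell (2.22%). They made up 27.6% of the calls with all libraries and 98.5% of the calls without nga 2. The genes called only with nga 2 kept their sign without it in 1210 of 1210 rises and 967 of 967 falls. Their medians in the fit without nga 2 were 0.68 and -0.67. Both fits share nga 1, nga 3 and the WT libraries, so the kept sign is not independent evidence.

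Library nga 2 had the largest difference from WT in 1104 of the 1647 risen genes, while nga 3 had the smallest in 1116. Among the 1361 fallen genes, nga 2 was the most changed library for 1012 and nga 3 the least changed for 962. The median difference of the risen genes from the WT mean was 0.85 in nga 1, 0.98 in nga 2 and 0.68 in nga 3, and that of the fallen genes was -0.86, -1.05 and -0.65. Only 41 genes were called without WT 1 and 47 without WT 2, against 492 without nga 1 and 5128 without nga 3. Without the lane 8 libraries, so that nga and WT shared lane 6, 6003 genes were called. Altogether 34 genes (0.191%) were called with all libraries and without each nga and WT library in turn, 29 that fell and 5 that rose. At an unadjusted p under 0.05, 6465 genes (36.3%) differed, 18.5% of all tested genes higher and 17.8% lower.

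The genes that fell furthest included ones for secreted, cell wall and lipid-related proteins. AT3G12000, annotated as a relative of SLR1, which in Brassica is a secreted glycoprotein of the stigma papillae, was at 0.335, 0.596 and 2.10 RPKM in nga, against 154 and 112 RPKM in WT. It was close to undetected in nga 1 and nga 2 and low in nga 3, and it fell by 6.14 ± 0.44, or 70.6-fold on the scale used (adjusted p = 0.00112). Without nga 2 it fell by 6.02 ± 0.50 (adjusted p = 0.00564). AT2G33850, which has no description in the files, was at 1.42, 3.30 and 12.2 RPKM in nga, against 294 and 197 RPKM in WT, and fell by 5.55 ± 0.59 (adjusted p = 0.00505). In 12 of the 15 largest falls, nga 3 was the highest of the nga libraries.

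**Figure D1:**
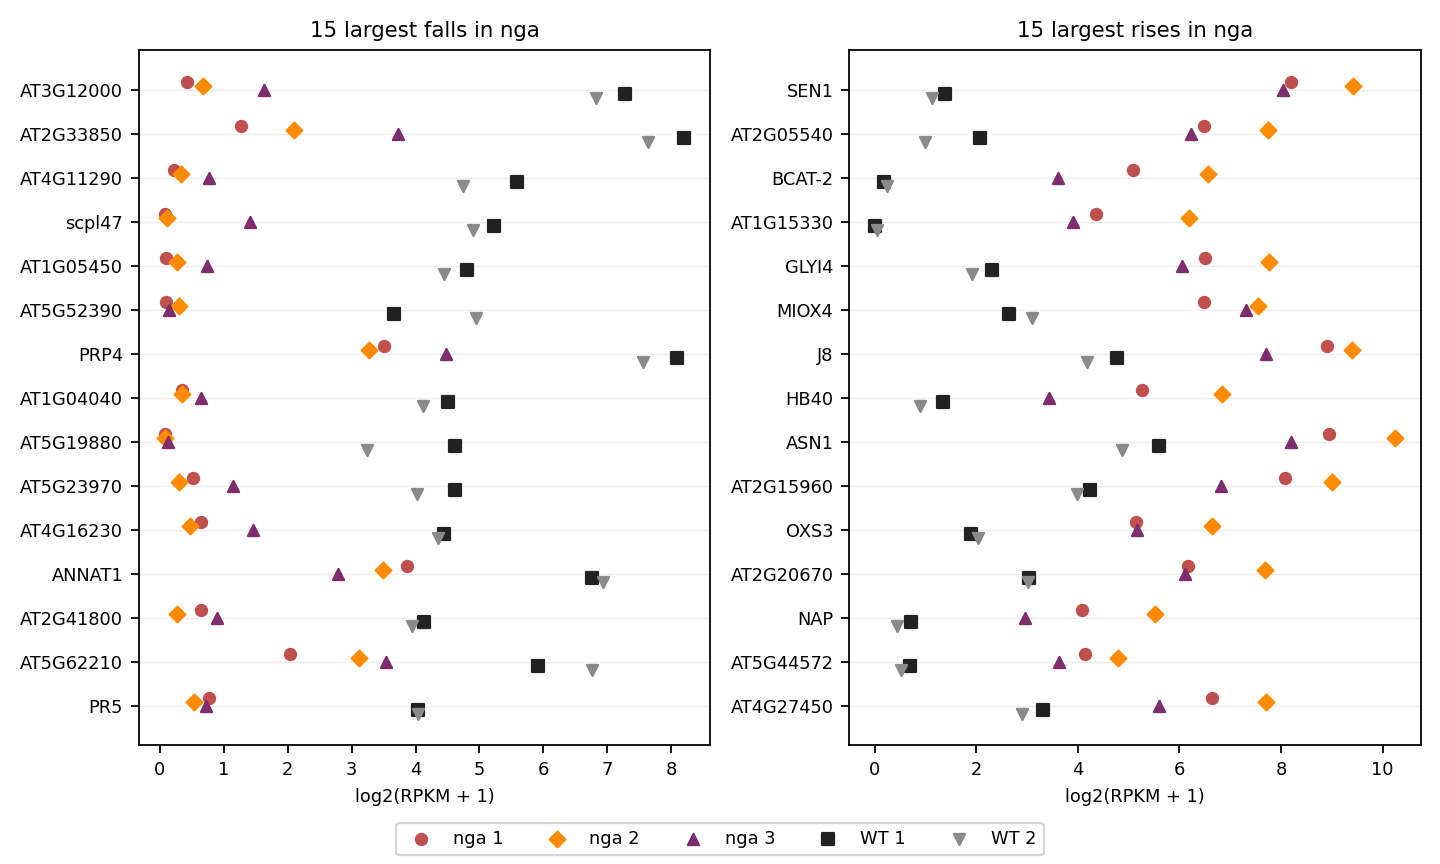
Level of the 15 genes with the largest fall (left) and the largest rise (right) in nga against WT, as log2(RPKM + 1), with 1 marker for each library. The genes were called with all libraries and without nga 2; nga 2 is the highest library in all 15 genes on the right, and nga 3 is the highest nga library in 12 of the 15 on the left.

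Wall-modifying proteins stood among the deepest falls. The class III peroxidase AT4G11290, of a family that uses hydrogen peroxide to cross-link wall polymers, was at 0.162, 0.260 and 0.706 RPKM in nga, against 47.1 and 25.8 RPKM in WT, and fell by 4.73 ± 0.27 (adjusted p = 0.000359). A second peroxidase, AT5G19880, was below 0.1 RPKM in every nga library, against 23.4 and 8.46 RPKM in WT, and fell by 3.83 ± 0.37 (adjusted p = 0.00314). The proline-rich wall protein PRP4 fell by 4.07 ± 0.43 and the DUF642 protein AT2G41800 by 3.44 ± 0.36. In each of these genes the highest nga value was below the lowest WT value.

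The largest falls also held genes described as lipid-related. The lipid-transfer protein AT1G05450 was at 0.0730, 0.205 and 0.664 RPKM in nga, against 27.0 and 20.8 RPKM in WT, and fell by 4.26 ± 0.21 (adjusted p = 0.000311). AT4G16230, a GDSL-type lipase or acylhydrolase, was at 0.554, 0.392 and 1.74 RPKM in nga, against 20.9 and 19.5 RPKM in WT, and fell by 3.55 ± 0.30. The HXXXD-type acyltransferase AT5G23970 fell by 3.66 ± 0.52 (adjusted p = 0.0112). GDSL proteins as a family had 13 of 48 tested members called lower and 0 higher, and 6 of the 13 were also called without nga 2. At an unadjusted p under 0.05 in limma, 20 of the 48 were lower and 1 higher, beside 17.8% and 18.5% of all tested genes. Lipid-transfer proteins had 10 of 49 tested members called lower (20.4%) and 5 higher (10.2%), and ketoacyl-CoA synthases 2 of 16 lower (12.5%) and 0 higher. Over all tested genes 7.65% were called lower and 9.26% higher.

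The other large falls belong to varied functions. The acid phosphatase AT1G04040 was at 0.276, 0.270 and 0.557 RPKM in nga, against 21.6 and 16.4 RPKM in WT, and fell by 3.87 ± 0.32 (adjusted p = 0.00183). AT5G52390, a PAR1 protein, was at or below 0.230 RPKM in nga, against 11.6 and 29.7 RPKM in WT, and fell by 4.12 ± 0.62. AT5G62210 (ATS3) was at 3.11, 7.67 and 10.6 RPKM in nga, against 59.5 and 107 RPKM in WT, and fell by 3.44 ± 0.60 (adjusted p = 0.0163). The serine carboxypeptidase-like gene scpl47 fell by 4.53 ± 0.42, the annexin ANNAT1 by 3.46 ± 0.28 and the pathogenesis-related thaumatin-like gene PR5 by 3.37 ± 0.29. The calls of 18 of the 30 genes with the largest changes in either direction were lost without WT 1 and those of 16 without WT 2. Without nga 1, 3 of the 30 calls were lost.

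Among the 29 falls that were called without each library in turn, several were smaller but tight. SAG13 was listed at 0, 0 and 0.0811 RPKM in nga, against 5.07 and 5.18 RPKM in WT, and fell by 2.58 ± 0.14 (adjusted p = 0.000311). The MATE efflux protein AT5G10420 was at 0.0653, 0 and 0.0495 RPKM in nga, against 8.45 and 6.95 RPKM in WT. LOG8, whose family releases active cytokinin from its nucleotide, was at 4.09, 3.69 and 4.27 RPKM in nga, against 19.0 and 17.0 RPKM in WT, and fell by 1.92 ± 0.14 (adjusted p = 0.00112). Replicates of each group lay close together in all 3 genes, and the groups stood well apart. The glutamate decarboxylase GAD4 fell by 2.26 ± 0.20, the homeodomain-like gene AT2G40260 by 2.55 ± 0.22 and the cell wall precursor gene AT2G20870 by 3.35 ± 0.24.

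Of 21 regulators of the style, stigma and transmitting tract, 8 fell (38.1%) and 1 rose, and 6 falls and the rise were also called without nga 2. Over all tested genes 7.65% fell and 9.26% rose, and 2.22% and 2.46% did so in both fits. The median difference of the 21 was -0.34, against -0.00 over all tested genes. All 21 are shown by library in the plot of style and stigma regulators. In whole carpels, fewer cells of a type and less RNA in each cell cannot be told apart.

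**Figure D2:**
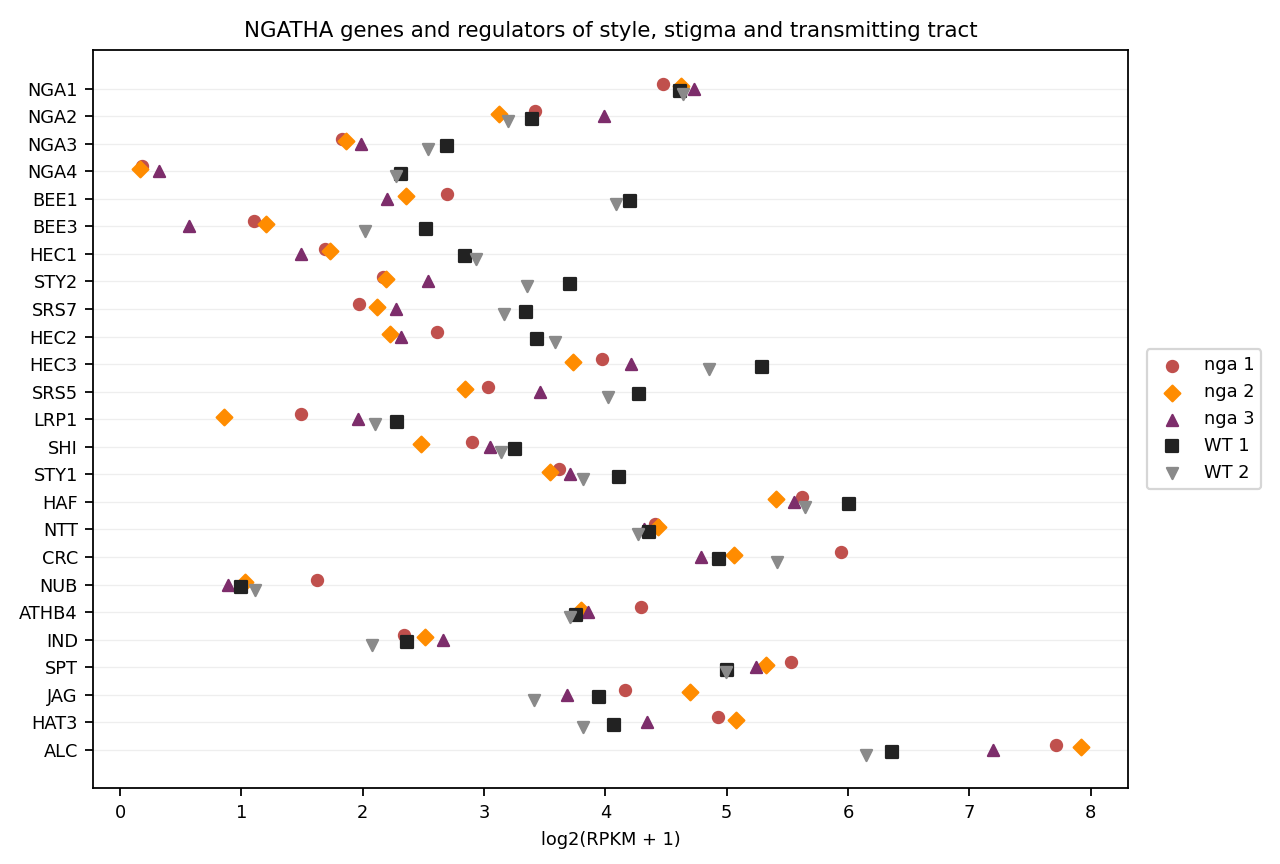
Level of the 4 NGATHA genes and 21 style, stigma and transmitting tract regulators, as log2(RPKM + 1), with 1 marker for each nga and WT library. Of the 21 regulators, 12 have all nga values below both WT values and 4 have all nga values above them, beside 27.7% and 29.4% of all tested genes.

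The bHLH genes took 5 of the 8 falls. BEE1, which acts with BEE3 and HAF in the transmitting tract, was at 5.48, 4.11 and 3.61 RPKM in nga, against 17.5 and 16.0 RPKM in WT, and fell by 1.73 ± 0.17 (adjusted p = 0.00359). BEE3 was at 1.14, 1.3 and 0.479 RPKM in nga, against 4.75 and 3.06 RPKM in WT, and fell by 1.32 ± 0.26 (adjusted p = 0.0217). HAF differed by -0.30 and was not called.

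The HECATE genes, which are needed for the stigma and the transmitting tract, were all lower. HEC1 was at 2.23, 2.33 and 1.81 RPKM in nga, against 6.18 and 6.64 RPKM in WT, and fell by 1.25 ± 0.16 (adjusted p = 0.00792). HEC2 fell by 1.13 ± 0.21 (adjusted p = 0.0187) and HEC3 by 1.1 ± 0.22 (adjusted p = 0.0218). Their nga values did not overlap WT, at 3.68 to 5.12 RPKM in nga against 9.85 and 11.0 RPKM in WT for HEC2, and at 12.3 to 17.5 RPKM in nga against 38.2 and 28.0 RPKM in WT for HEC3. Without nga 2 the calls of HEC2 (adjusted p = 0.0507) and HEC3 (adjusted p = 0.0576) were lost and that of HEC1 was kept (adjusted p = 0.0197).

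The SHI/STY family, zinc-finger activators of auxin synthesis genes, gave the other 3 falls. STY2 was at 3.50, 3.58 and 4.80 RPKM in nga, against 12.1 and 9.21 RPKM in WT, and fell by 1.23 ± 0.22 (adjusted p = 0.0168). SRS7 fell by 1.14 ± 0.17 (adjusted p = 0.0125) and SRS5 by 1.04 ± 0.20 (adjusted p = 0.0200). All 3 kept their calls without nga 2. STY1 differed by -0.34, SHI by -0.39 and LRP1 by -0.76 (adjusted p = 0.107), and none of them was called.

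Of the other carpel regulators on the list only ALC was called. SPT, a bHLH factor of the carpel margin, was at 45.1, 39.2 and 36.8 RPKM in nga, against 31.1 and 30.9 RPKM in WT, a difference of 0.36 ± 0.14 (adjusted p = 0.107). The HD-Zip gene HAT3 was at 29.4, 32.7 and 19.3 RPKM in nga, against 15.8 and 13.1 RPKM in WT (adjusted p = 0.0569). CRC, NTT, IND and the growth regulator JAG differed by 0.09, 0.07, 0.28 and 0.50. ALC, a bHLH gene known from fruit dehiscence, rose by 1.35 ± 0.21 (adjusted p = 0.0138), at 209, 241 and 146 RPKM in nga against 81.3 and 69.9 RPKM in WT. Its locus (chromosome 5, 26785106 to 26786431) lies within the annotated span of ICU2 (26776953 to 26786431), so its value is uncertain. Without WT 1 none of the 21 regulators was called, without WT 2 only 1 was, lower in nga, and without nga 1 there were 4 lower calls.

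Genes were also grouped by the description column of the files into 69 families, and 63 of these had at least 10 tested members. The 6 families with the largest share of fallen members were DNA replication proteins, arabinogalactan and fasciclin proteins, flavonoid enzymes, histones, class III peroxidases and subtilases. Shares of fallen members ran from 53.5% to 31.0%, beside 7.65% over all tested genes.

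**Figure D3:**
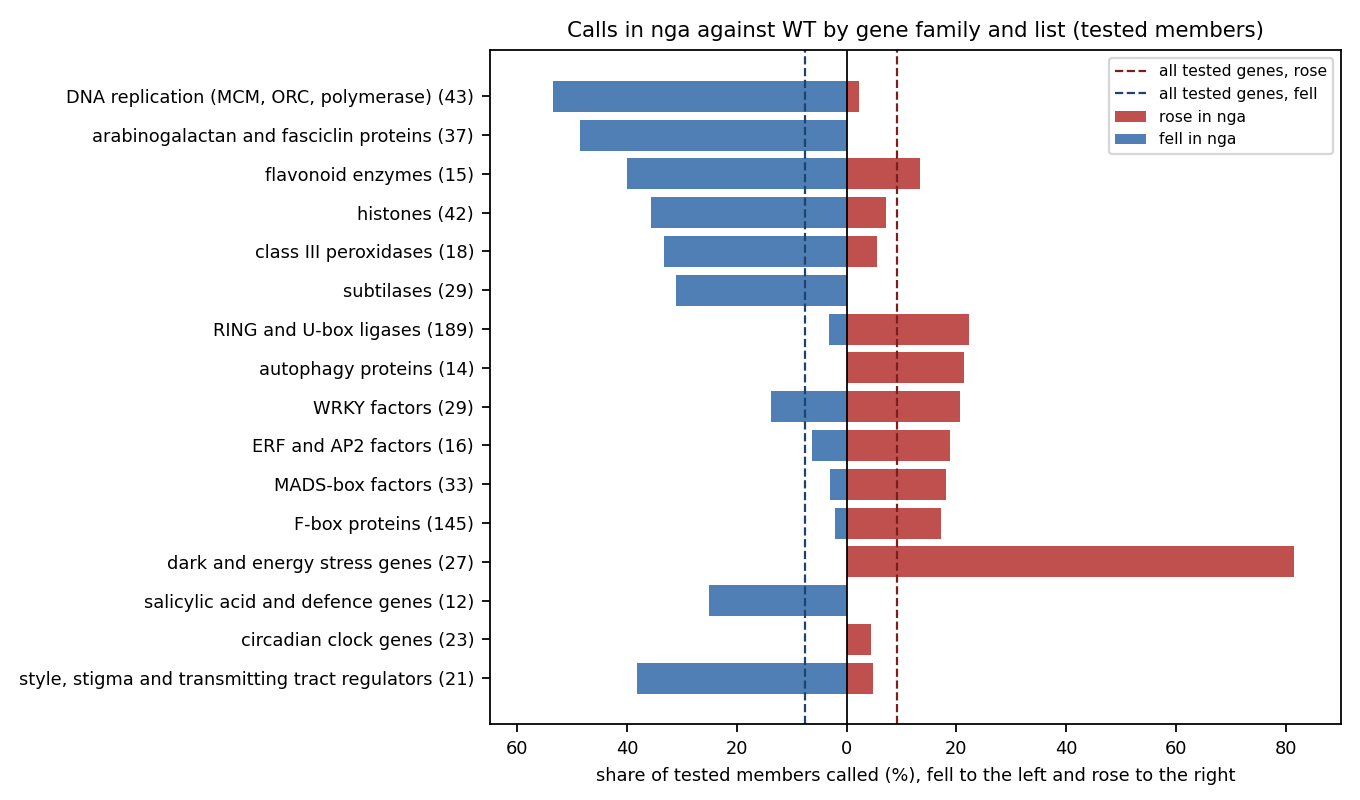
Share of tested members (in parentheses) that fell, as bars to the left, or rose, as bars to the right, in nga against WT, in percent, for the 6 families with the largest share in each direction and 4 gene lists; dashed lines mark the shares over all tested genes. The upper 6 families have 53.5% to 31.0% of members fallen, the next 6 have 22.2% to 17.2% risen, and 81.5% of the dark and energy stress genes rose.

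Of 43 tested DNA replication proteins, 23 fell and 1 rose, with a median of -0.78, and 8 of the falls were also called without nga 2. They spanned the steps of replication. The origin-binding subunit ORC4 was at 9.17, 7.09 and 8.69 RPKM in nga, against 18.0 and 19.7 RPKM in WT, and fell by 1.1 ± 0.20 (adjusted p = 0.0185). MCM5, a subunit of the replicative helicase, fell by 1.36 ± 0.25 and PRL, its MCM7 subunit, by 1.17 ± 0.22. Of the polymerases, POLA2, the second subunit of polymerase alpha, was at 10.8, 7.68 and 12.0 RPKM in nga, against 21.5 and 23.0 RPKM in WT, and fell by 1.08 ± 0.19 (adjusted p = 0.0178). The catalytic subunit ICU2, whose value is uncertain because its span takes in the ALC locus, fell by 1.11 ± 0.20, TIL1 of polymerase epsilon by 0.65 ± 0.13, and RPA70D, which coats single-stranded DNA, by 1.54 ± 0.33. In POLA2, ICU2, MCM5 and RPA70D the lowest value was that of nga 2.

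Histones, which package newly made DNA, had 15 of 42 tested members lower and 3 higher, with a median of -0.66, and 5 of the falls were also called without nga 2. The H2A gene HTA6 was at 120.0, 150.0 and 195 RPKM in nga, against 386 and 352 RPKM in WT, and fell by 1.27 ± 0.24 (adjusted p = 0.0185). HTR12, the centromeric histone H3, was at 14.5, 14.0 and 17.3 RPKM in nga, against 26.8 and 28.4 RPKM in WT, and fell by 0.82 ± 0.13 (adjusted p = 0.0128). The H2A.Z gene HTA9 went the other way, at 369, 425 and 314 RPKM in nga against 190.5 and 147 RPKM in WT, a rise of 1.13 ± 0.22. Of the 3 histone rises, 0 were also called without nga 2. Histone genes have near-identical copies whose reads could be split among them, so single members are uncertain. Kinesins had 2 of 22 tested members lower and 0 higher (14 and 0 at an unadjusted p under 0.05 in limma), and tubulins 3 of 26 lower and 0 higher (11 and 1). Their called shares were near the 7.65% of all tested genes that fell, and 17.8% of all tested genes were lower at the unadjusted threshold.

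Cell surface glycoproteins were the second family. Of 37 tested arabinogalactan and fasciclin proteins, 18 fell and 0 rose, with a median of -0.87, and 8 of the falls were also called without nga 2. At an unadjusted p under 0.05 in limma, 21 were lower and 1 higher, beside 17.8% and 18.5% of all tested genes. AGP18 was at 18.6, 14.9 and 21.0 RPKM in nga, against 69.4 and 72.1 RPKM in WT, and fell by 1.92 ± 0.24 (adjusted p = 0.00792). FLA10 fell by 1.18 ± 0.17, and the abundant FLA1, at 72.6, 64.1 and 71.7 RPKM in nga against 113 and 114 RPKM in WT, fell by 0.70 ± 0.11 (adjusted p = 0.0141). Replicates were close in each of them and the groups did not overlap.

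Class III peroxidases had 6 of 18 tested members lower and 1 higher, and 5 of the falls were also called without nga 2. Besides the 2 genes above, AT3G03670 was at 0.139, 0.0891 and 0.347 RPKM in nga, against 11.9 and 4.42 RPKM in WT, and fell by 2.82 ± 0.32 (adjusted p = 0.00653). Subtilases, secreted serine proteases, had 9 of 29 lower and 0 higher (14 and 3 at an unadjusted p under 0.05), and 3 of the falls were also called without nga 2. SBT5.4 was at 0.491, 1.17 and 1.00 RPKM in nga, against 20.7 and 13.1 RPKM in WT, and fell by 3.23 ± 0.31 (adjusted p = 0.00324). SBT4.13 fell by 2.97 ± 0.61 and lost its call without nga 2 (adjusted p = 0.0594).

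Flavonoid enzymes had 6 of 15 tested members lower, 5 of them also without nga 2, and 2 higher. TT4, the chalcone synthase at the head of the pathway, was at 33.0, 59.8 and 81.0 RPKM in nga, against 247 and 269.6 RPKM in WT, and fell by 2.23 ± 0.43 (adjusted p = 0.0199). The chalcone isomerase-like gene CHIL fell by 2.05 ± 0.45 and the flavonol synthase FLS1 by 2.68 ± 0.29. The 2 rises were TKPR1 and LAP6, which act in the pollen wall pathway of the tapetum, the inner lining of the anther. Without WT 1 or without WT 2, lower calls remained in 2 of the 6 families with the most falls, 3 in the peroxidases and 1 in the subtilases each time.

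The genes that rose furthest included several known from darkness, carbon starvation and senescence. SEN1 (AT4G35770, chromosome 4, 16944878 to 16946266), also known as DIN1, a dark-inducible gene, was at 293, 687 and 264 RPKM in nga, against 1.60 and 1.18 RPKM in WT. It rose by 7.31 ± 0.72, or 159-fold on the scale used (adjusted p = 0.00359), and by 6.88 ± 0.75 without nga 2 (adjusted p = 0.0124). The glycine-rich protein AT2G05540 was at 88.5, 212 and 73.5 RPKM in nga, against 3.22 and 0.968 RPKM in WT, and rose by 5.29 ± 0.46 (adjusted p = 0.00183). In both genes nga 2 was more than 2-fold above the other nga libraries, which alone stood far above WT.

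Further large rises fell on amino acid and stress metabolism. BCAT-2, which starts the breakdown of branched-chain amino acids, was at 33.0, 93.0 and 11.2 RPKM in nga, against 0.126 and 0.184 RPKM in WT, and rose by 4.87 ± 0.75 (adjusted p = 0.0127). ASN1, the asparagine synthetase induced in the dark, was at 489, 1210.2 and 291 RPKM in nga, against 47.7 and 28.2 RPKM in WT, and rose by 3.89 ± 0.64. AT1G15330, a CBS-domain protein, was at 19.4, 72.3 and 13.9 RPKM in nga and was listed at 0 and 0.0247 RPKM in WT. The spread among the nga libraries was wide in all of these, and nga 2 was the highest library in 15 of the 15 largest rises.

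NAP, a NAC transcription factor known for its part in leaf senescence, was at 15.8, 44.8 and 6.73 RPKM in nga, against 0.628 and 0.346 RPKM in WT, and rose by 3.61 ± 0.68 (adjusted p = 0.0191). The glyoxalase gene GLYI4 rose by 4.66 ± 0.59, the myo-inositol oxygenase MIOX4 by 4.25 ± 0.52, the chloroplast DnaJ protein J8 by 4.20 ± 0.71 and OXS3 by 3.69 ± 0.61. AT5G44572, with no description, was at 16.7, 26.6 and 11.4 RPKM in nga, against 0.618 and 0.436 RPKM in WT, and rose by 3.58 ± 0.30 (adjusted p = 0.00183). The 5 rises called without each library in turn were SEN1, AT2G05540, AT5G44572, HB21 and SCPL13, a serine carboxypeptidase-like gene at 68.6, 55.0 and 37.6 RPKM in nga and 8.57 and 7.36 RPKM in WT.

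HB21, HB40 and HB53 are HD-Zip factors known from axillary buds, where they act in dormancy. HB21 was at 6.97, 10.4 and 6.42 RPKM in nga, against 0.459 and 0.132 RPKM in WT, and rose by 2.77 ± 0.23 (adjusted p = 0.00183). HB40 was at 37.5, 113 and 9.75 RPKM in nga, against 1.52 and 0.840 RPKM in WT, and rose by 4.07 ± 0.80 (adjusted p = 0.0209). Both were also called without nga 2. HB53 was at 2.94, 6.09 and 1.2 RPKM in nga, against 0.0926 and 0.0980 RPKM in WT, and was not called (adjusted p = 0.0615).

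Promoters were read for the genes with the deepest fall and the largest rise, as the 250 bases before the gene start of the RefSeq annotation of TAIR10.1. They were searched on both strands for CACTTG and CACCTG, hexamers associated with B3 factors, for ACTCAT, known from bZIP targets, and for CACGTG, the G-box. None of these contains another. AT3G12000 (chr3:3819643-3819892, minus strand) holds 1 match, ACTCAT on the opposite strand, and SEN1 (chr4:16944628-16944877, plus strand) holds 1 match, CACTTG. Capitals mark the matches, and both sequences run 5′ to 3′ towards the gene start.
AT3G12000: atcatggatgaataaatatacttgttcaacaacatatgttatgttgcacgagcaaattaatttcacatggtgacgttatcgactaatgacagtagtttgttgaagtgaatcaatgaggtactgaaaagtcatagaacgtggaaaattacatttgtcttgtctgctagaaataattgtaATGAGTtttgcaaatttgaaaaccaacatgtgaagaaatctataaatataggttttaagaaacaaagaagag
SEN1: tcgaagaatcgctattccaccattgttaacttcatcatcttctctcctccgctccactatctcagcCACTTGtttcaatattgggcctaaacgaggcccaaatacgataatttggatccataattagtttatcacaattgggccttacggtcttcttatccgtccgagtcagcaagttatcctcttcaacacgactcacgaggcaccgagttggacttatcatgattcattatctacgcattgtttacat

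Among the 394 promoters of genes that fell with and without nga 2, 9.14% held CACTTG and 2.03% CACCTG, beside 9.26% and 2.51% of 17718 promoters of tested genes. Among the 437 of genes that rose in both, these shares were 9.61% and 2.52%. The G-box was in 7.36% of the fallen and 11.0% of the risen promoters, beside 7.42% of all. ACTCAT was in 12.7% of the fallen and 14.2% of the risen, beside 11.8% of all. These shares are descriptions of letters in a short window and were not tested.

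A list of 28 genes known to respond to darkness or energy shortage, SEN1, BCAT-2, ASN1 and MIOX4 among them, was mostly higher in nga. Of its 27 tested members 22 rose (81.5%) and 0 fell, with a median of 1.78 (at an unadjusted p under 0.05 in limma, 24 were higher and 0 lower). In all, 25 had all nga values above both WT values, beside 29.4% of all tested genes. Without nga 2 the median was 1.43 and 11 members were called. The median difference from the WT mean was 1.52 in nga 1, 2.35 in nga 2 and 1.46 in nga 3. Genes of this list were already among the largest rises of these data when it was drawn up, so its count is not independent evidence of its direction. Without WT 1 or without WT 2, 1 member stayed called, and without nga 1, 5 did.

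**Figure D4:**
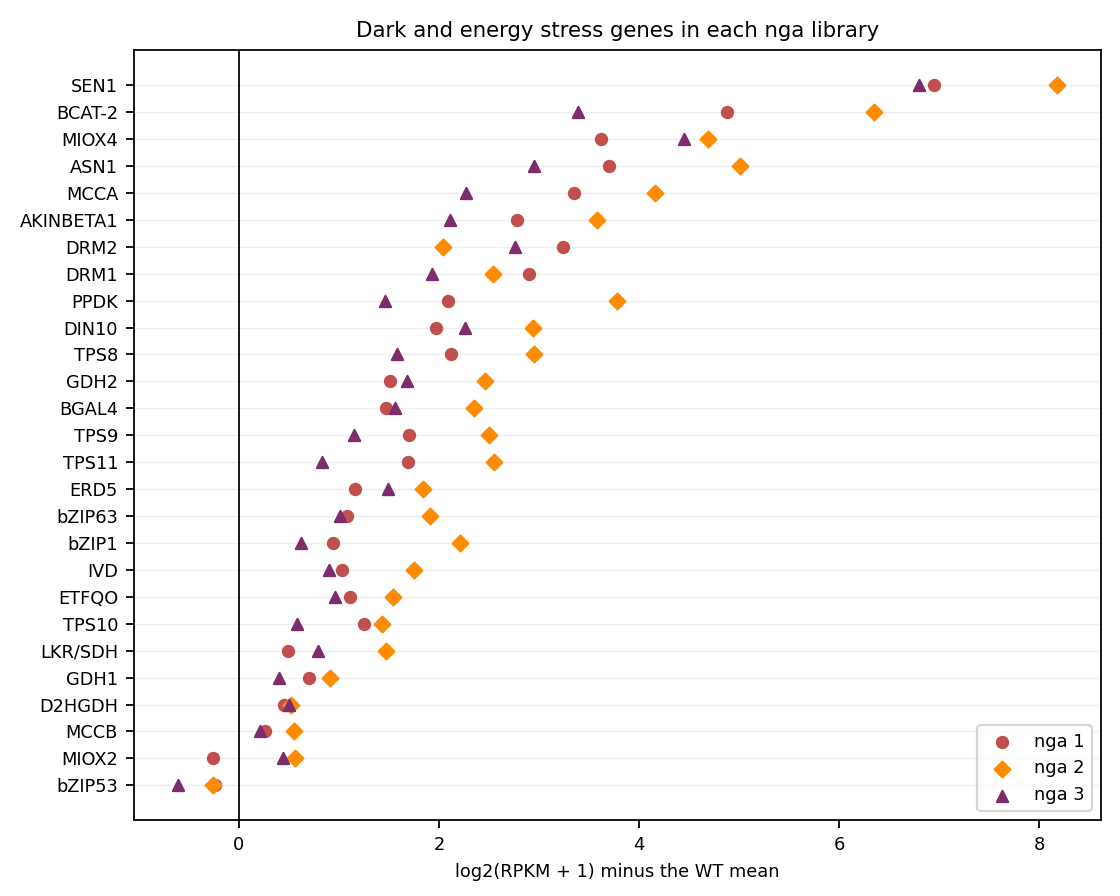
Difference of each nga library from the WT mean on the log2(RPKM + 1) scale, for the 27 tested dark and energy stress genes, with 1 marker for each nga library and the WT mean at 0. The median of the 27 is 1.52 in nga 1, 2.35 in nga 2 and 1.46 in nga 3, and bZIP53 is the gene in which all 3 nga libraries lie below 0.

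Genes of branched-chain amino acid breakdown were among the risen members. MCCA, a subunit of the enzyme that carboxylates a leucine breakdown product, was at 163, 288 and 77.0 RPKM in nga, against 17.8 and 12.8 RPKM in WT, and rose by 3.26 ± 0.64 (adjusted p = 0.0209; 0.0524 without nga 2). IVD, which feeds electrons from these breakdown steps to the respiratory chain, rose by 1.22 ± 0.25 with all libraries and by 0.96 ± 0.17 without nga 2 (adjusted p = 0.0364). ETFQO, a later carrier of those electrons, rose by 1.21 ± 0.30. MCCB, the partner subunit of MCCA, was at 31.6, 38.7 and 30.4 RPKM in nga, against 28.0 and 24.4 RPKM in WT, and was not called (adjusted p = 0.178). Of the nitrogen-handling enzymes, GDH2 was at 144, 277 and 161 RPKM in nga, against 52.5 and 46.9 RPKM in WT, and rose by 1.88 ± 0.44. ERD5, a proline dehydrogenase, rose by 1.5 ± 0.42 (adjusted p = 0.0452).

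The regulatory side of the list rose with it. AKINBETA1, a subunit of SnRK1, the kinase that senses low energy, was at 145, 254 and 91.1 RPKM in nga, against 25.9 and 15.9 RPKM in WT, and rose by 2.83 ± 0.52 (adjusted p = 0.0185). TPS8, of the trehalose phosphate synthase-like proteins, was at 67.0, 120.2 and 45.8 RPKM in nga, against 13.8 and 15.5 RPKM in WT, and rose by 2.22 ± 0.36 (adjusted p = 0.0144). TPS9 rose by 1.78 ± 0.39, and bZIP63, a target of SnRK1, by 1.34 ± 0.35. The related factors bZIP1 (1.26, adjusted p = 0.0715) and bZIP53 (-0.37, adjusted p = 0.244) were not called.

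The dormancy-associated genes DRM1 and DRM2 had the highest mean RPKM of the list in nga. DRM1 was at 1719, 1334 and 879.6 RPKM in nga, against 277 and 189.7 RPKM in WT, and rose by 2.46 ± 0.45 (adjusted p = 0.0183). DRM2 was at 1161, 505 and 832 RPKM in nga, against 162 and 91.9 RPKM in WT, and rose by 2.68 ± 0.49. Unlike most of the list, DRM2 was lowest in nga 2 among the nga libraries, and it rose by 3.00 ± 0.49 without it (adjusted p = 0.0337). DIN10, a raffinose synthase family gene, was at 214, 420.3 and 261 RPKM in nga, against 59.4 and 48.5 RPKM in WT, and rose by 2.39 ± 0.49, a call lost without nga 2 (adjusted p = 0.0594).

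The families with the largest share of risen members had shares of 22.2% to 17.2%, beside 9.26% over all tested genes. RING and U-box ubiquitin ligases, which mark proteins for degradation, had 42 of 189 tested members higher (22.2%) and 6 lower, with 10 of the rises also called without nga 2 and a median of 0.26. AT2G47560 was at 1.87, 2.97 and 1.86 RPKM in nga, against 0.164 and 0.289 RPKM in WT, and rose by 1.38 ± 0.21 (adjusted p = 0.0127). AT1G20823 fell, at 11.1, 10.3 and 7.31 RPKM in nga against 33.9 and 34.1 RPKM in WT. F-box proteins, the substrate-binding parts of another class of ligase, had 25 of 145 higher (17.2%) and 3 lower. AT1G70360 was at 7.69, 9.80 and 8.10 RPKM in nga, against 2.84 and 2.56 RPKM in WT, and rose by 1.36 ± 0.17 (adjusted p = 0.00871).

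Autophagy proteins had 3 of 14 tested members higher and 0 lower (6 and 0 at an unadjusted p under 0.05 in limma, beside 18.5% higher and 17.8% lower over all tested genes), and none of the 3 was called without nga 2. ATG13, of the complex that starts autophagy, was at 29.4, 33.8 and 23.8 RPKM in nga, against 15.3 and 11.3 RPKM in WT, and rose by 1.07 ± 0.20 (adjusted p = 0.0195; 0.0511 without nga 2). MADS-box factors had 6 of 33 higher and 1 lower. AGL15 was at 15.1, 14.1 and 11.8 RPKM in nga, against 7.04 and 6.87 RPKM in WT, and rose by 0.88 ± 0.13 (adjusted p = 0.0127), the family's only call kept without nga 2 (adjusted p = 0.0358). WRKY factors had 6 of 29 higher and 4 lower, and ERF and AP2 factors 3 of 16 higher and 1 lower. The 1 call of each kept without nga 2 was a fall, of WRKY57 by 0.98 ± 0.15 and of ADAP, an AP2 factor, by 1.78 ± 0.24. In these 6 families no rise was called without WT 1 or without WT 2.

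Among salicylic acid and cold response genes no call was a rise. Of 18 salicylic acid and defence genes, 12 reached the level for testing, 3 fell, 0 rose, and the median was -0.56 (unadjusted p under 0.05 in limma for 6 lower and 0 higher). WRKY54 was at 1.97, 1.76 and 1.36 RPKM in nga, against 4.28 and 6.28 RPKM in WT, and fell by 1.21 ± 0.31 (adjusted p = 0.0363; 0.0820 without nga 2). The others were PR5, above, and NIMIN1. Of 18 tested cold and abscisic acid genes, COR15A and COR15B fell (11.1%), neither without nga 2, and 0 rose, with a median of -0.01. At an unadjusted p under 0.05 in limma, 3 were higher and 3 lower. Over all tested genes 7.65% fell and 9.26% rose, and 17.8% were lower and 18.5% higher at the unadjusted threshold. WT 1 and WT 2 differed several-fold in COR15A and COR15B, with COR15A at 1.91, 1.4 and 1.29 RPKM in nga against 19.0 and 90.2 RPKM in WT.

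Library nga 2 stood apart from nga 1 and nga 3 in genes of the circadian clock and their outputs, which cycle over the day. In all, 224 genes were at least 2-fold higher in nga 2 than in both other nga libraries and 90 were at least 2-fold lower, on the log2(RPKM + 1) scale. For nga 3 these counts were 288 and 156, and for nga 1 they were 48 and 38. The morning gene PRR9 was at 0.695, 54.0 and 0.344 RPKM in nga, against 0.0757 and 0.385 RPKM in WT. RVE8, a MYB factor related to CCA1 and LHY, was at 1.51, 70.9 and 1.87 RPKM in nga, against 0.505 and 0.925 RPKM in WT. CAB2, a chlorophyll-binding antenna protein, was at 12.2, 522 and 7.20 RPKM in nga, against 5.48 and 31.8 RPKM in WT. In these genes nga 2 stood far above nga 1, nga 3 and both WT libraries. In RVE8 nga 1 and nga 3 were also above both WT values, and in CAB2 WT 1 and WT 2 differed several-fold.

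**Figure D5:**
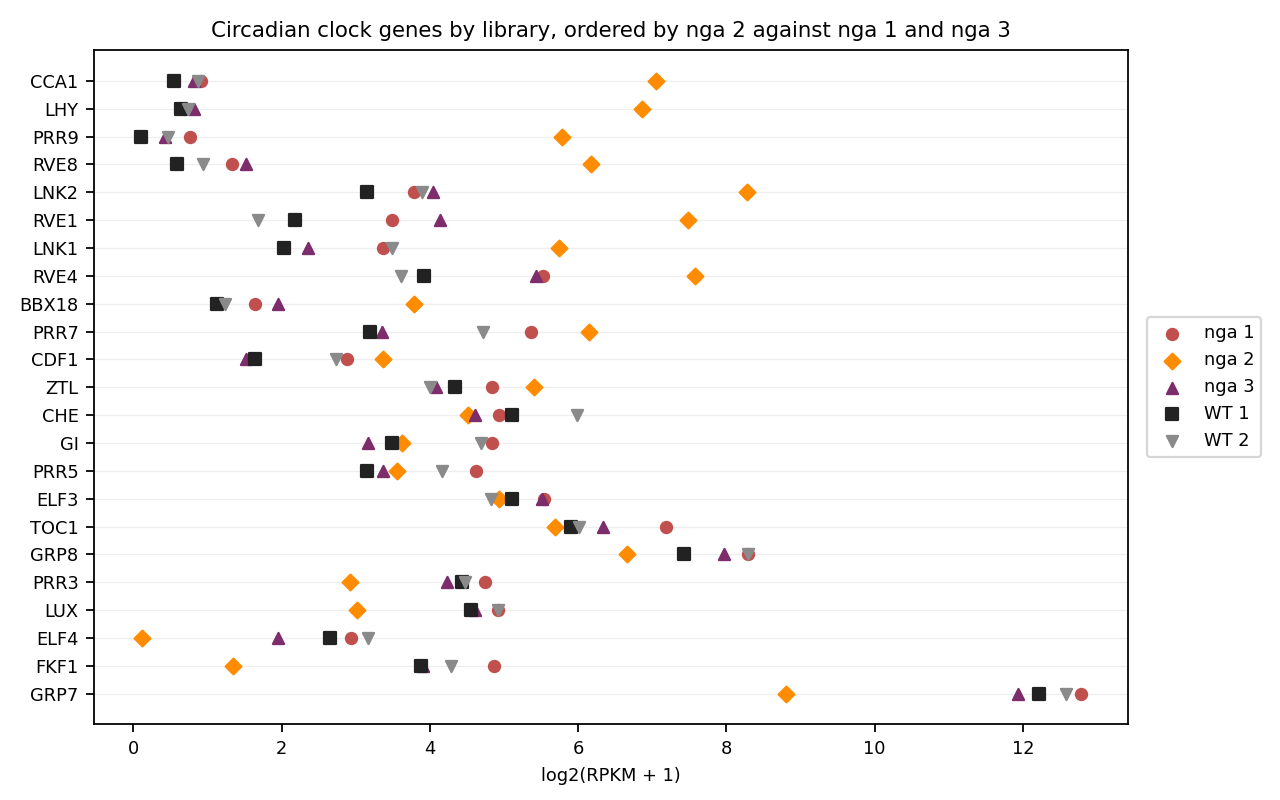
Level of the 23 genes of the circadian clock list as log2(RPKM + 1), with 1 marker for each nga and WT library, ordered by how far nga 2 lies from nga 1 and nga 3. CCA1, LHY, PRR9 and RVE8, at the top, are far higher in nga 2 than in the other libraries shown, and ELF4, FKF1 and GRP7, at the bottom, are lowest in nga 2.

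Other clock outputs were lowest in nga 2. The clock-controlled RNA-binding protein GRP7 was at 7023, 444 and 3924 RPKM in nga, against 4756 and 6120.1 RPKM in WT. FKF1, a blue-light receptor of the flowering pathway, was at 28.1, 1.53 and 14.0 RPKM in nga, against 13.8 and 18.5 RPKM in WT. COR27 was at 202, 13.4 and 98.6 RPKM in nga, against 63.0 and 71.5 RPKM in WT. None of these 3 was called with nga 2 or without it. In GRP7 and FKF1 nga 1 and nga 3 lay on either side of the WT values or among them, and in COR27 both were above WT.

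Evening genes are known to carry the evening element, AAAATATCT, in their promoters. It was searched on both strands in the same 250 bases and was found in 21.6% of 88 promoters of genes at least 2-fold lower in nga 2, beside 2.60% of all and 2.70% of 222 promoters of genes at least 2-fold higher in nga 2. The G-box was in 18.0% of those 222, beside 7.42% of all. Of the 10 genes with the lowest nga 2 values against the other nga libraries, 4 held the evening element. 1 match from each is shown with its flanking bases, 5′ to 3′ on the strand of the gene, at chr4:14954130-14954178 (plus) for AT4G30650, chr2:9266560-9266608 (minus) for GRP7, chr5:17199921-17199969 (minus) for COR27 and chr1:25508433-25508481 (plus) for FKF1, in TAIR10.1. Capitals mark the element, read on the opposite strand in COR27 and FKF1. The COR27 stretch ends with a second match, left in lower case.
AT4G30650: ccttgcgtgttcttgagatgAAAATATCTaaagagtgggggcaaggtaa
GRP7: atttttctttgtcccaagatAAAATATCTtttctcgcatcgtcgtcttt
COR27: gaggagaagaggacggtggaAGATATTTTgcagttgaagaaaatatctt
FKF1: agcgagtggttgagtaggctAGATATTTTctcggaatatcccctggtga

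Within the clock list 1 of 23 tested genes was called with all libraries, a rise (4.35%), and 0 fell. Over all tested genes 9.26% rose and 7.65% fell. RVE4 was at 45.0, 189.5 and 42.0 RPKM in nga, against 14.1 and 11.2 RPKM in WT, and rose by 2.41 ± 0.56 (adjusted p = 0.0300). Without nga 2 it rose by 1.71 ± 0.15 (adjusted p = 0.00618), and nga 1 and nga 3 alone were about alike and above WT. RVE1, a related MYB factor, was at 10.3, 178 and 16.5 RPKM in nga, against 3.55 and 2.21 RPKM in WT, and was called only without nga 2, by 1.88 ± 0.40 (adjusted p = 0.0486). The labels give no time of day for the harvests, and the part of harvest time in these differences was not tested.

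Markers of other organs were read for tissue carried over in the dissection. Of 9 tapetum markers 2 reached the level for testing and both rose, 1 of them also without nga 2. The summed level of the 9 was 30.1 to 39.6 RPKM in nga, against 35.1 and 14.9 RPKM in WT. TKPR1 was at 11.2, 8.49 and 9.58 RPKM in nga, against 3.95 and 3.72 RPKM in WT, and LAP6 at 25.9, 28.6 and 20.1 RPKM in nga, against 16.2 and 10.3 RPKM in WT. A9, a defining tapetum gene, was at 0, 0.496 and 0.0703 RPKM in nga, against 10.8 and 0.167 RPKM in WT, and DYT1 was listed at 0 in all 5 libraries. Of 5 pollen markers, with a summed level of 60.5 to 107 RPKM in nga against 20.1 and 47.8 RPKM in WT, 4 were tested and 0 called (1 was higher at an unadjusted p under 0.05 in limma). VGD1, a pollen pectin methylesterase, was at 77.6, 43.9 and 55.6 RPKM in nga, against 14.0 and 31.5 RPKM in WT (adjusted p = 0.123). The 4 perianth markers summed to 21.4 to 24.6 RPKM in nga and to 24.0 and 24.6 RPKM in WT. Of these, 3 were tested and the petal and stamen gene PI rose. PI was at 4.04, 5.46 and 5.41 RPKM in nga and 2.65 and 1.98 RPKM in WT, and its call was lost without nga 2. Of 4 green tissue markers, summing to 2690.1 to 5235 RPKM in nga, highest in nga 2, and to 2513 and 2564 RPKM in WT, the antenna gene LHCA4 rose (adjusted p = 0.0483; 0.0990 without nga 2). Of 6 female gametophyte markers 2 were tested and 0 called (1 higher at an unadjusted p under 0.05), with sums of 6.73 to 14.4 RPKM in nga and 3.28 and 2.93 RPKM in WT. Of the carpel and ovule markers SHP2 rose by 0.63 ± 0.12 (adjusted p = 0.0200) and the ovule integument gene INO by 0.62, and INO was also called without nga 2. The part of other organs in the results was not tested.

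The loci around the NGATHA genes were read as well, as the 5 nearest tested loci on each side. Of 37 such genes 4 were called with all libraries, beside 16.9% of all tested genes. Without nga 2, 0 of the 37 were called, beside 4.75% of all tested genes. In that fit 9 had an unadjusted p under 0.05 in limma. The matching share over all tested genes was not worked out, so the 9 cannot be called many or few. AT2G46900, near NGA1, was at 33.2, 34.2 and 23.6 RPKM in nga, against 15.6 and 11.4 RPKM in WT, and rose by 1.11 ± 0.26 (adjusted p = 0.0311). NAC001, near NGA3, rose by 0.89 ± 0.20, AT1G01080 on its other side fell by 0.58 ± 0.16, and ROC4, near NGA2, fell by 1.19 ± 0.33. CCA1 lies 2 tested loci from NGA1 and LHY 3 from NGA3.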

How the data were processed

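RNA from hand-collected carpels was made into TruSeq libraries and sequenced on an Illumina HiSeq instrument, per the labels' protocols. The deposited values are RPKM with a decimal comma, per the file headers, which also name the lanes; the processing notes name FastQC and TAIR10, and no source used here gives the aligner or counter. In other words, the authors deposited length- and depth-scaled values, so count tests could not be run. Each file holds 33590 entries; 6374 without a locus (all at 0), 18 entries of 9 repeated loci and 1 malformed entry were left out, which left 27197 loci. Mapped reads were estimated from the spacing of low values and ranged from 23.1 to 38.3 M over the 8 libraries. At these depths only 45.9% to 50.4% of the low values lay near a whole number of reads, so the depths are approximate.

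Loci at 1 RPKM or more in at least 2 of 8 libraries (17786) were tested on log2(RPKM + 1) with limma 3.58.1 (R 4.3.3), with a mean-variance trend, the 3 groups as terms and Benjamini-Hochberg adjustment. The contrast was repeated without nga 2. Members, lists and families were chosen with earlier results of these data known. Named genes are the 4 NGATHA genes, the 15 largest changes in each direction called with and without nga 2 (no overlap of the groups, mean of at least 5 RPKM in nga or WT), up to 3 called members of each list or family, and the 10 genes each way in which nga 2 stood furthest apart. Other genes were chosen after their values were seen. Lists have counts and medians only. Coordinates and promoters are from the RefSeq annotation of TAIR10.1, which matched 26710 loci; 68 tested genes had no promoter read. Alternatives were other normalizations, filters, pseudocounts, sample sets, the lane, a replicate block and leaving out each library. The script was run on simulated libraries with known changes. These had independent noise and no library or lane effects, so that run does not show how often calls are right in these data. Tables were handled with pandas 2.3.3 and numpy 2.4.6 under Python 3.11.15 and plots drawn with matplotlib 3.10.9.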

Additional observations from a re-analysis of the deposited data

Results flagged for a closer look

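The 3 genes with the largest rises in nga, SEN1, AT2G05540 and BCAT-2, are given here for the overexpression line. Its libraries entered the tests only through the spread and the choice of tested genes, and no result above describes its levels. Every 35S:NGA value of these genes was above both WT values. The share of all tested genes in which this holds was not worked out for 35S:NGA. For nga, all values were above both WT values in 29.4% of all tested genes. SEN1 was at 205, 35.2 and 173 RPKM in 35S:NGA, so its lowest value there, 35.2 RPKM, stood above the highest WT value of 1.60 RPKM. AT2G05540 was at 66.4, 78.0 and 74.7 RPKM in 35S:NGA, with a lowest value of 66.4 RPKM against a highest WT value of 3.22 RPKM. BCAT-2 was at 16.2, 8.60 and 23.8 RPKM in 35S:NGA, with a lowest value of 8.60 RPKM against a highest WT value of 0.184 RPKM. HB21 and AT5G44572, picked from the other rises named above, were also higher there than in WT. HB21 was at 6.26, 6.69 and 8.38 RPKM in 35S:NGA, against a highest WT value of 0.459 RPKM, and AT5G44572 was at 4.75, 3.50 and 4.37 RPKM in 35S:NGA, against a highest WT value of 0.618 RPKM. The same 2 WT libraries serve both lines, so these values and the rises in nga share their WT libraries.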

How the results depend on the processing

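Counts of calls moved most with which libraries were used. Over the fits that left out 1 library, 41 to 5128 genes were called, 5 to 2425 of them higher and 32 to 2703 lower, against 3008, 1647 and 1361 with all. The lowest total came without WT 1 and the highest without nga 3. With only the nga and WT libraries 1711 genes were called (998 higher, 713 lower). With the lane as a term 6005 were called (2844 and 3161), and 6003 without the lane 8 libraries (2843 and 3160). Asking for at least 2-fold left 1071 (574 and 497), and no filter on low values left 1097 rises. Without nga 2 the 844 calls became 335 with only nga and WT, 1812 with the lane as a term and 1288 with a replicate block, alternatives chosen after seeing the data. With all libraries the replicate block gave 3892 calls. Deviations of same-numbered libraries from their group means had r = -0.26 for nga 1 with WT 1 and -0.07 for nga 2 with WT 2. With 2 WT libraries, swapping WT 1 and WT 2 only reverses the sign of r. The check therefore cannot tell whether the numbers mark pairs. The share of calls that rose was 54.8%, and 22.0% without WT 1 and 10.6% without WT 2. Of the NGATHA genes 1 was called, in place of 2, with no filter, a mean of at least 5 RPKM, a pseudocount of 5 or at least 2-fold, and 1 to 2 with 1 library left out. Calls among list and family members, 668 with all libraries, were 406 with only nga and WT, 1324 with the lane as a term, 1325 without lane 8, 315 at 2-fold or more, and 21 to 1124 with 1 library left out. Called NGATHA neighbours, 4 with all libraries, were 2 with no filter, with only nga and WT or at 2-fold, 9 with the lane as a term or without lane 8, and 0 to 9 with 1 library left out. Genes in which nga 2 stood apart, 314 in all, were 550 with a pseudocount of 0.1 and 182 with one of 5. NGA1, at -0.02, took the values 0.030 with the replicate block and -0.080 to 0.051 with 1 library left out, highest without nga 1. NGA2, at 0.22, was at -0.019 both with a lane term and when lane 8 was left out, and at -0.019 to 0.41 with 1 library left out, lowest without nga 3. The cause of these shifts was not tested. Over all named genes and alternatives there were 2729 values, with 291 lost calls and 5 reversed signs. With 2 WT libraries, each fit without one of them assumed that the lone library varies like the other groups.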
